A study of Mus musculus with 31 samples.

Results

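The data cover 9 genes of the muscle acetylcholine receptor and the neuromuscular junction in bulk RNA-seq of the mouse masseter muscle (MM), a chewing muscle. They were picked by symbol, with earlier results of these data known, and all 9 were found among 22609 genes in the count tables of 31 mice. The mice were C57BL/6J males, each giving 1 library from the left MM, and the comparisons ask how these genes changed after an inflammatory or an enzymatic injury of that muscle. One experiment compared MM at 1d (n = 3) and 5d (n = 3) post-CFA, complete Freund's adjuvant mixed with PBS, with a vehicle group named CFA control (n = 3). The other gave collagenase type 2 (Col), which cuts the collagen around muscle fibres, at 0.2U or 10U, with 1 vehicle group named Contr (n = 3). The 0.2U groups are labelled 1C (n = 4) and RPC (n = 4), and the labels do not say on which day each was collected. The 10U groups are labelled 2d (n = 4), 6d (n = 3) and 12d (n = 4), where the study names 1d, 6d and 14d, and the names of the labels are kept here. The day on which vehicle mice were collected was not given, so a change between 10U and Contr can hold a part that belongs to the day. By the labels the groups differed in the injected agent, its dose and the day, with no day given for the 0.2U and vehicle groups, and all were given their injection into the MM under brief anaesthesia.

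The muscle acetylcholine receptor is a ring of 5 subunits that opens when acetylcholine from the motor nerve binds. Chrna1, Chrnb1 and Chrnd encode subunits that all muscle receptors contain. Chrng encodes the gamma subunit of the foetal receptor, which innervated adult muscle replaces with the epsilon subunit encoded by Chrne. Musk encodes the receptor kinase that organises the postsynaptic membrane after agrin from the nerve binds its partner Lrp4, and Rapsn encodes rapsyn, which clusters the receptors. Ache encodes acetylcholinesterase, which ends the signal, and Colq encodes the collagen tail that anchors this enzyme in the synaptic basal lamina. It is textbook knowledge that denervated and regenerating fibres make Chrng and spread receptor transcripts along the fibre, whereas nuclei under a working nerve terminal make Chrne.

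The libraries held 14843778 to 29076671 reads on genes, with a median of 20834472. Levels are given as CPM, counts scaled to library size by the TMM method over all 31 libraries, changes as log2 fold changes with their standard error (SE), and a gene is called where edgeR's quasi-likelihood test gave a Benjamini-Hochberg adjusted p under 0.05 over all genes tested in that comparison. The 11 libraries of 10U Col differed from the other 20, Contr among them, in how reads were assigned. Reads that overlapped more than 1 gene made 0.559 to 0.703% of the reads on genes, outside genes and ambiguous in the 10U libraries and 0.125 to 0.259% in the others. Chrna10, on the strand opposite to a neighbouring muscle gene, had 63 to 798 counts in the 10U libraries and 0 to 3 in the others. This difference between the sets of libraries and the effect of 10U against Contr cannot be told apart, whereas comparisons of the 10U days with each other are within 1 set. A list of salivary gland genes, 10 of 12 of them in the tables, summed to 11.1 to 276910 CPM, with both low and high mice in Contr, CFA 1d, CFA control, 1C and 2d. All 20 genes of a myofibre list passed the filter on low counts in every comparison. That filter asks only for 10 or more counts in 3 or more libraries, so it does not measure the share of muscle. In bulk tissue, fewer cells of a type and less RNA per cell cannot be told apart.

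On build mm9 all members are protein-coding, and their positions follow the annotation GENCODE vM1. Chrnd (chr1:89087227-89096644) and Chrng (chr1:89102386-89108410) lie next to each other on the plus strand of chromosome 1. Chrna1 (chr2:73401272-73418395) and Rapsn (chr2:90875777-90885886) are on chromosome 2. Chrnb1 (chr11:69597538-69609445) and Chrne (chr11:70428385-70432718) are both on the minus strand of chromosome 11. The other members are Musk (chr4:58298834-58390290), Ache (chr5:137728747-137735694) and Colq (chr14:32336268-32404529). Of the transcribed windows of 50 bases, the read length, 4.57% of Colq and 0.415% of Chrna1 also occur in other genes, and none of the other 7 members does. Colq shares 199 exonic bases with Hacl1 on the same strand, so that part of its reads may have been counted as ambiguous. Chrne is crossed on the opposite strand by 4930544D05Rik, which had 2 to 38 counts in the 10U libraries and 0 to 1 in the others, so Chrne values of the 10U groups are read against each other below as well as against Contr.

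Promoter sequences are shown for Chrna1 and Chrng, called higher at 6d post-Col (10U), and for Chrne, which was not. Chrnb1 and Musk were called higher as well and have a promoter, but only their matches are given. RefSeq promoters (build GRCm38.p6, not the build of the counts) were found for 6 of the 9 members, and the 250 bases before the start of transcription are printed. Capitals mark CAGCTG, an E-box of the kind bound by MyoD and myogenin, and CCGGAA, the core of the N-box of synaptic genes.
Chrna1, chr2:73580339-73580588, minus strand: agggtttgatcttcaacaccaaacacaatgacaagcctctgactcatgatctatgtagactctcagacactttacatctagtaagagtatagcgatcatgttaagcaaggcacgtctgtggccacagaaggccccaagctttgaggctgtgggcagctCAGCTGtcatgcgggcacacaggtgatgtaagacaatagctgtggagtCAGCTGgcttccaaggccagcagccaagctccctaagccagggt
Chrng, chr1:87205561-87205810, plus strand: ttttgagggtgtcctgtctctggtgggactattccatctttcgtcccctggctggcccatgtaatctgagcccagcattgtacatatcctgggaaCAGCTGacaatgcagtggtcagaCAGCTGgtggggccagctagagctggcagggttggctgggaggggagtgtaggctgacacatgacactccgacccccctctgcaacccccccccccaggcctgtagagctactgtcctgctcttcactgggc
Chrne, chr11:70619195-70619444, minus strand: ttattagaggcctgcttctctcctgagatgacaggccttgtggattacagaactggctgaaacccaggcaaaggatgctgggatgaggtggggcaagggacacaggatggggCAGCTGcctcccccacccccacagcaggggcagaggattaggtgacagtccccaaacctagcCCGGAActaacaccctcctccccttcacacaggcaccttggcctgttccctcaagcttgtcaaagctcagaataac
CAGCTG reads the same on both strands and is 1 form of the general E-box CANNTG, while CCGGAA was searched on both strands. Chrna1 held CAGCTG at 92 and 44 bases before the start and Chrng at 155 and 132 bases. At least 2 matches were found in 1.26% of 32851 promoters of the same length, and at least 1 match in 13.0%. Chrne held 1 CAGCTG, 138 bases before the start, and 1 CCGGAA, 76 bases before it. CCGGAA was present in 12.0% of all promoters and in none of the other 5 members with a promoter. Musk held 1 CAGCTG, and Chrnb1 and Ache held none, though CANNTG occurred in all 6 members and in 66.2% of all promoters. A match says only that these letters are in this window.

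The shared receptor subunits rose sharply at 6d post-Col (10U). Chrna1 stood at 270, 561 and 421 CPM in the 3 mice at 6d and at 26.5, 28.1 and 15.1 CPM in Contr. The lowest 6d mouse was thus far above the highest vehicle mouse, and the change was 4.17 ± 0.37 (log2, SE) with an edgeR adjusted p of 0.00146. Chrnd was at 68.4, 200 and 150 CPM at 6d against 11.9, 10.3 and 7.29 CPM in Contr, a change of 3.83 ± 0.41 (edgeR adjusted p = 0.00246). Chrnb1, the third shared subunit, rose less, with 93.1, 141 and 158 CPM at 6d against 23.9, 24.6 and 19.3 CPM (2.53 ± 0.23, edgeR adjusted p = 0.00161). For all 3 genes the values at 6d and in Contr did not overlap.

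**Figure D1:**
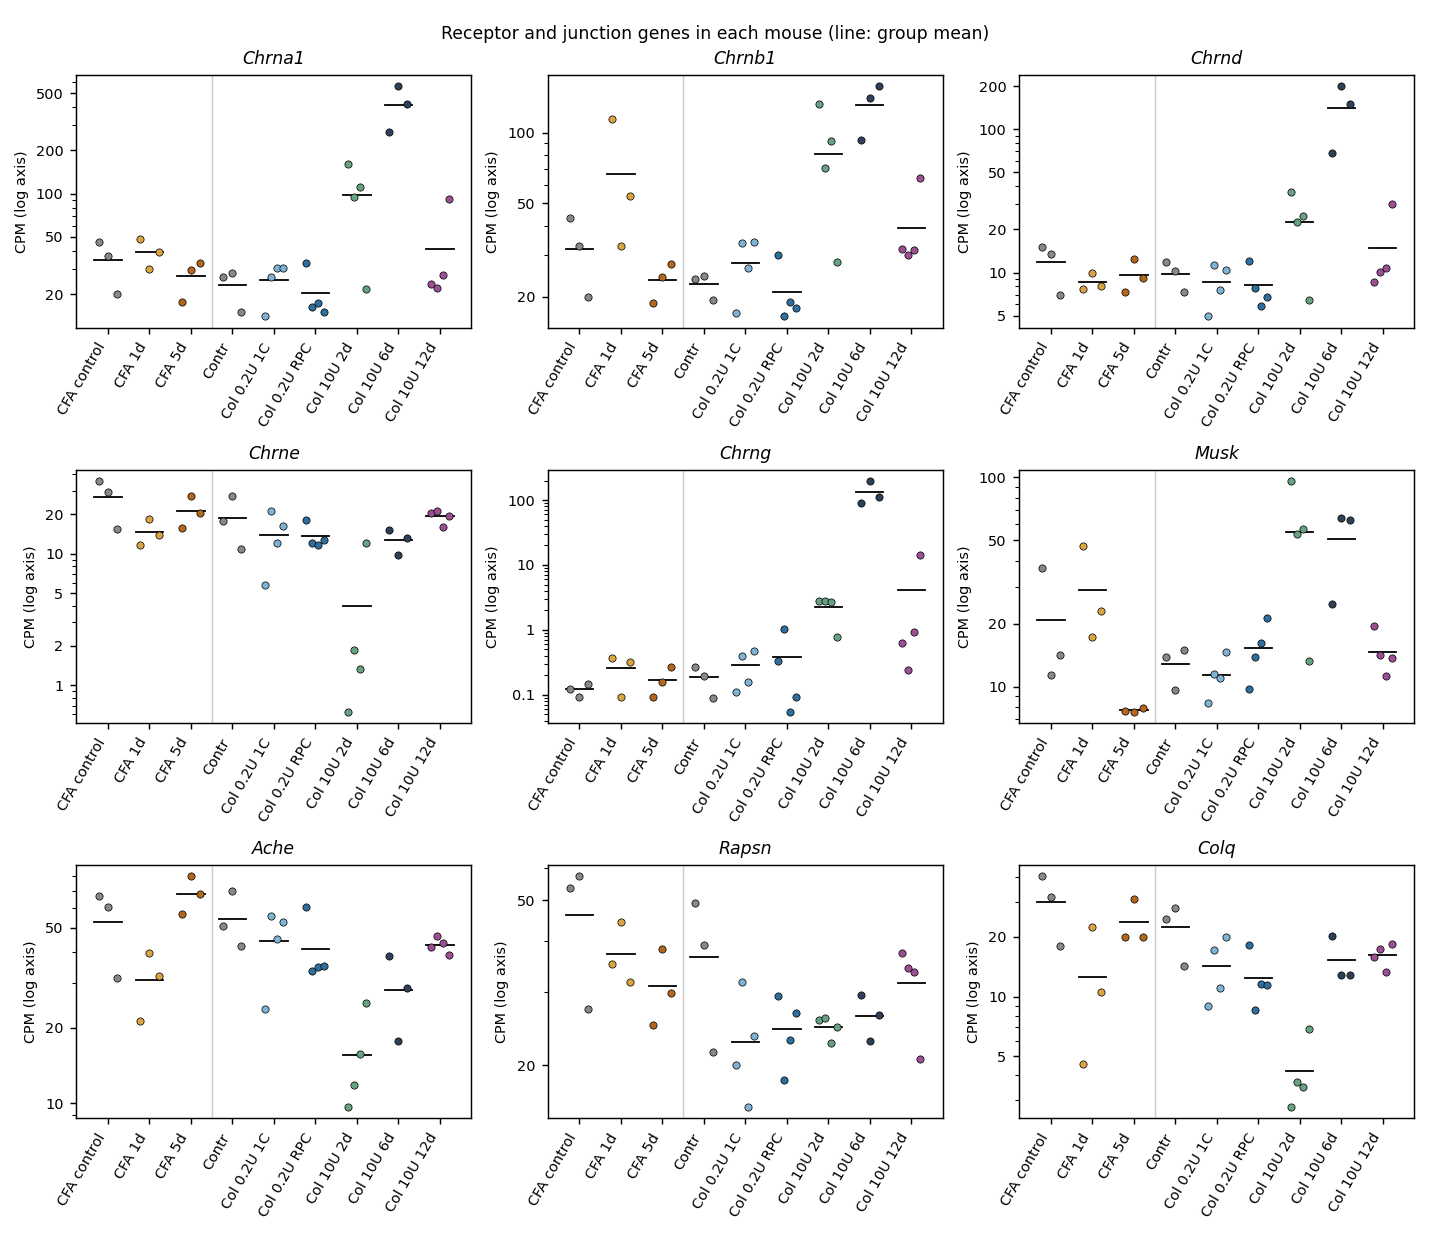
CPM of the 9 members in each mouse (points, log axis) for the 9 groups, with the group mean as a line and CFA groups left of the vertical line. At 6d post-Col (10U) Chrng sat between 89.8 and 195 CPM, above every other mouse, while Chrne at 2d was near 1 CPM in 3 mice and at 12.1 CPM in the fourth.

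At 2d the same subunits split the group by mouse. Chrna1 was at 162, 95.4 and 112 CPM in mice 1 to 3 and at 21.7 CPM in mouse 4, which lay inside the vehicle range. Chrnd showed this order with 36.3, 22.4 and 24.9 CPM against 6.41 CPM, and Chrnb1 with 132, 70.8 and 92.4 CPM against 28.2 CPM. With mouse 4 in the group none of the 3 was called, at log2 fold changes of 2.09 ± 0.59 for Chrna1 (edgeR adjusted p = 0.0700), 1.85 ± 0.45 for Chrnb1 (0.0583) and 1.21 ± 0.50 for Chrnd (0.138). Without mouse 4 all 3 were called, at 2.42 (edgeR adjusted p = 0.00173), 2.13 (0.00148) and 1.51 (0.00527). The myofibre list summed to 54277, 62587 and 64850 CPM in mice 1 to 3 and to 103347 CPM in mouse 4. The salivary list summed to 67297, 82226 and 28.3 CPM in mice 1 to 3 and to 110676 CPM in mouse 4, the highest of the group. The part of both lists in the values of mouse 4 was not tested.

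From 6d to 12d the shared subunits fell again. Chrna1 was at 23.6, 22 and 27.4 CPM in mice 1 to 3 at 12d and at 91.6 CPM in mouse 4, a change of -3.32 ± 0.57 from 6d (edgeR adjusted p = 0.0128). Chrnd and Chrnb1 had the same mouse on top, with 29.9 and 64.1 CPM against 8.63 to 10.8 and 30.0 to 31.9 CPM in the other 3 mice. Their changes from 6d were -3.21 ± 0.53 and -1.71 ± 0.31 (edgeR adjusted p = 0.0120 and 0.0145). Against Contr no shared subunit was called at 12d, and without mouse 4 the remaining changes were 0.10 for Chrna1, 0.03 for Chrnd and 0.49 for Chrnb1. Mouse 4 of the 12d group also had the lowest sum of myofibre genes in that group, 86578 against 162802 to 206507 CPM, and the highest sum of regenerating fibre genes, 2608 against 734 to 1118 CPM. The part of these lists in the values of mouse 4 was not tested.

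The gamma and epsilon subunits differed in their course. In Contr, Chrng was close to absent, with 6, 3 and 2 counts (0.273, 0.196 and 0.0906 CPM), whereas Chrne stood at 17.7, 27.3 and 10.8 CPM. At 2d Chrng was at 2.78, 2.78 and 2.66 CPM in mice 1 to 3 and at 0.788 CPM in mouse 4, each above the highest vehicle mouse. The fitted change was 3.57 ± 0.65 (edgeR adjusted p = 0.0482), and the ratio of summed counts, 185 against 11, after division by library size was 11.5 with a 95% exact counting interval of 6.3 to 23.5. At 6d Chrng reached 89.8, 195 and 110 CPM, a change of 9.43 ± 0.49 (edgeR adjusted p = 2.93e-04). The ratio of summed counts, 10505 against 11, formed in the same way was 738 with an interval of 412 to 1479. These intervals cover counting error only, and Chrng passed the low-count filter only through the 10U libraries, so a test it passed had to find it higher there.

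Chrne went the other way at 2d, to 0.630, 1.85 and 1.33 CPM in mice 1 to 3, with 12.1 CPM in mouse 4. The first 3 values were below all other mice of the series, and the fourth was inside the vehicle range. The fitted change was -2.16 ± 0.92 (edgeR adjusted p = 0.146) with mouse 4 and -3.85 (0.00215) without it. By 6d Chrne was back at 15.1, 9.72 and 13.1 CPM, which overlapped Contr (-0.55 ± 0.34, edgeR adjusted p = 0.249). At 12d it was at 20.5, 21.1, 15.9 and 19.4 CPM, above all 6d mice, and this small rise from 6d was called (0.62 ± 0.18, edgeR adjusted p = 0.0421). This call depended on the fit, since the edgeR adjusted p was 0.0515 without the low-count filter and 0.466 in 1 fit of all libraries. With library size set by the myofibre list the change was -0.07. Among the 10U libraries alone, Chrne was called higher at 6d than at 2d once mouse 4 of the 2d group was left out (3.30, edgeR adjusted p = 0.00120), and was 1.61 ± 0.89 (0.297) with it.

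Chrng at 12d was at 0.627, 0.242 and 0.941 CPM in mice 1 to 3 and at 14.4 CPM in mouse 4. Its change from 6d was -4.97 ± 1.19 (edgeR adjusted p = 0.0248), and -7.75 (3.23e-04) without that mouse. From 2d to 6d Chrng rose by 5.87 ± 0.48 (edgeR adjusted p = 0.00185). In the order of group means Chrng at 6d did not overlap any other group, whereas each pair of neighbours from 12d downwards overlapped.

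Levels per exon length show how the make-up of receptor transcripts turned over. In RPKM, the scaled CPM divided by exon length in kilobases, the means in Contr were 5.30 for Chrna1, 8.93 for Chrnb1, 3.23 for Chrnd, 11 for Chrne and 0.0971 for Chrng (n = 3). At 6d they were 95.2, 51.7, 45.9, 7.49 and 68.6 RPKM in that order (n = 3), so Chrng was above Chrne in RPKM. As a share of both transcripts per length, Chrng was 1.34, 0.626 and 0.731% in Contr and 83.9, 94.6 and 88.1% at 6d. At 2d the share was 79.5, 56.9 and 63.8% in mice 1 to 3 and 5.41% in mouse 4. At 12d it was 2.62, 0.995 and 4.94% in mice 1 to 3 and 39.6% in mouse 4. The 2 mice numbered 4 thus stood on opposite sides of their groups, one near vehicle at 2d and one part of the way to the 6d level at 12d. The same share was 0.28 to 0.841% in CFA control, 0.438 to 2.66% at 1d post-CFA, 0.500 to 1.14% at 5d post-CFA, 1.12 to 2.53% in the 1C group and 0.413 to 7.03% in the RPC group.

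**Figure D2:**
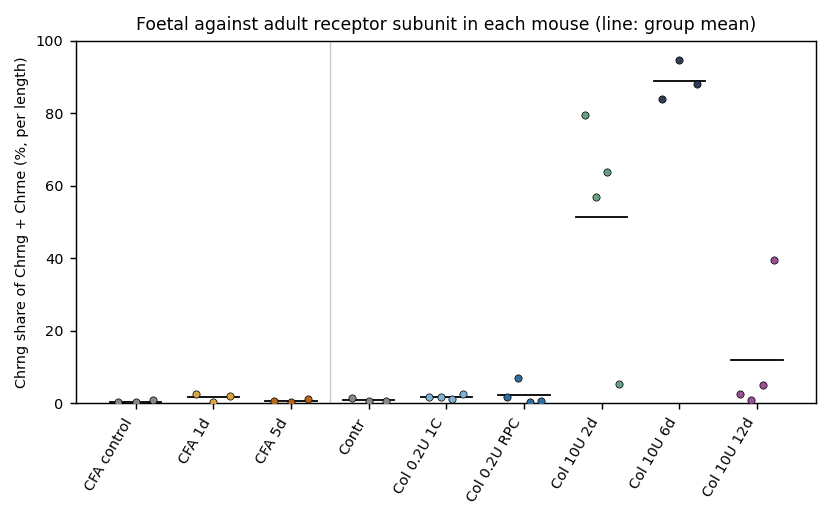
Share of Chrng in the sum of Chrng and Chrne per exon length (percent), 1 point per mouse and the group mean as a line. The 3 mice at 6d post-Col (10U) lie between 83.9 and 94.6%, and no mouse outside the 10U groups exceeds 7.03%.

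In exact permutation tests (2-sided) of the mean share, 12d against 6d gave p = 0.0286, the smallest value that 35 arrangements allow, 2d against Contr gave p = 0.0571, and 6d against 2d gave p = 0.0571. For 6d against Contr the p was 0.1, the smallest that 3 against 3 mice allow. Adjusted over the 9 comparisons made, the lowest p was 0.171, so none passed. The mean share was 88.9 ± 5.41% at 6d (SD, n = 3), 51.4 ± 32.1% at 2d (SD, n = 4), 12.0 ± 18.4% at 12d (SD, n = 4) and 0.899 ± 0.385% in Contr (SD, n = 3).

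The clustering machinery did not follow as 1 block. Musk rose at 6d, to 24.8, 64.1 and 62.8 CPM against 13.9, 9.66 and 14.9 CPM in Contr (1.97 ± 0.37, edgeR adjusted p = 0.0123). Leaving out mouse 2 of the 6d group ended that call (1.78, adjusted p = 0.0522). At 2d Musk was already at 95.9, 53.8 and 56.4 CPM in mice 1 to 3 and at 13.2 CPM in mouse 4 (2.10 ± 0.57, edgeR adjusted p = 0.0665). Without mouse 4 the change was 2.42 and was called (edgeR adjusted p = 0.00168). From 2d to 6d the change of Musk was -0.12 ± 0.58 (edgeR adjusted p = 0.922). It fell from 6d to 12d by 1.77 ± 0.33 on the log2 scale (edgeR adjusted p = 0.0157), and mouse 4 of the 12d group, with 13.7 CPM, did not stand apart for Musk, where the others had 11.2 to 19.4 CPM.

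Rapsn was called in no comparison. It was at 25.7, 26.1, 22.6 and 24.8 CPM at 2d and at 29.6, 22.9 and 26.4 CPM at 6d, all within the 21.5 to 49.2 CPM of Contr. The change was -0.53 ± 0.25 at 2d and -0.47 ± 0.28 at 6d (edgeR adjusted p = 0.180 and 0.237). Scaled to the myofibre list, Rapsn was instead called higher, at 1.19 at 2d and 0.87 at 6d (edgeR adjusted p = 0.00794 and 0.0326), a scaling that moved the median of all genes to 1.67 and 1.31. In Contr Rapsn was the member with the highest level per length, 20.3 RPKM (n = 3), and at 6d it was 14.6 RPKM, below all subunits but Chrne.

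The enzyme that ends transmission and its anchor fell early. Ache was at 9.66, 11.8, 15.7 and 25.0 CPM at 2d against 51.0, 69.7 and 42.2 CPM in Contr, a fall of 1.77 ± 0.35 on the log2 scale (edgeR adjusted p = 0.0482). Colq was at 2.78, 3.71, 3.51 and 6.86 CPM against 24.5, 28.1 and 14.3 CPM, a fall of 2.36 ± 0.38 (edgeR adjusted p = 0.0395). For both genes all 4 mice at 2d, mouse 4 included, were below every vehicle mouse. Against the 12d mice of the same dose, whose libraries had a like share of ambiguous reads, both remained called, at -1.48 for Ache and -1.96 for Colq (edgeR adjusted p = 0.0363 and 0.0225). With the myofibre list as library size Colq was called at -0.78 (edgeR adjusted p = 0.0390) and Ache was not (-0.21, 0.477). Leaving out any single Contr mouse or any of mice 1 to 3 at 2d ended the Ache call, and all but the removal of Contr mouse 3 ended that of Colq.

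Colq was higher again at 6d, at 20.1, 12.9 and 12.9 CPM, and its rise from 2d was called (1.83 ± 0.35, edgeR adjusted p = 0.0240). Ache at 6d was at 38.5, 17.6 and 28.8 CPM, still below the lowest vehicle mouse but not called (-0.94 ± 0.31, edgeR adjusted p = 0.0589). DESeq2 called it at -0.95 (adjusted p = 0.0202). At 12d Ache was at 41.7, 46.2, 43.4 and 38.8 CPM and Colq at 15.8, 17.3, 13.3 and 18.3 CPM, and neither differed from Contr beyond the threshold.

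Counted over the members, Chrng is left out of the counts against Contr, since it entered those tests only through the 10U group. Of the other 8 members 2 were called at 2d, where 2.22% of 14373 genes were. Of these 0 were higher (1.14% of genes) and 2 were lower (1.08%), and 7 had an unadjusted p under 0.05, as 33.3% of genes had. At 6d 4 of 8 were called, all higher, where 27.3% of 14281 genes were called and 14.0% were higher. The 4 were Chrna1, Chrnb1, Chrnd and Musk, and 5 had an unadjusted p under 0.05 (43.4% of genes). No member was called at 12d, where 1.23% of 14176 genes were, with 1 of the 8, Chrnb1, at an unadjusted p under 0.05 (17.4% of genes) and 0 called by DESeq2. Values of 5 of the 8 did not overlap between 6d and Contr, where 47.0% of all genes did not, of 3 between 2d and Contr, where 23.9% did not, and of 1, Chrnb1, between 12d and Contr, where 17.1% did not. Within the 10U libraries 3 members were higher at 6d than at 2d (8.73% of 14513 genes were called and 4.68% were higher), 4 had an unadjusted p under 0.05 (26.6%) and 4 did not overlap (23.7%). From 6d to 12d 5 were lower and 1 higher, where 26.4% of 14344 genes were called, 13.0% lower and 13.4% higher. Here 7 members had an unadjusted p under 0.05 (44.0%) and 7 did not overlap (36.5%). The 5 that fell were Chrng and the 4 that had been higher at 6d, and both comparisons share the 6d mice. Leaving out mouse 4 of the 2d group raised the count at 2d, with Chrng included, from 3 to 8, and leaving out any other mouse of either group lowered it to 0 to 2. At 6d that count was 5 with all mice, 8 without Contr mouse 3, which added Ache, Rapsn and Colq, and 3 without mouse 2 of the 6d group, where Chrng could not be tested. Leaving out mouse 2 of the 6d group lowered that of 12d against 6d from 6 to 0, at adjusted p of 0.0577 to 0.158. Every other mouse but 12d mouse 4, left out in turn, gave 3 to 4 there, with Chrna1, Chrnb1 and Chrnd always called. For 6d against 2d the count was 6 without mouse 4 at 2d and 1, Chrng, without 2d mouse 1, 2d mouse 2 or any 6d mouse. The shares of all genes called in these smaller fits are not given here. These counts thus have no background beside them and are not read as a result about the members.

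**Figure D3:**
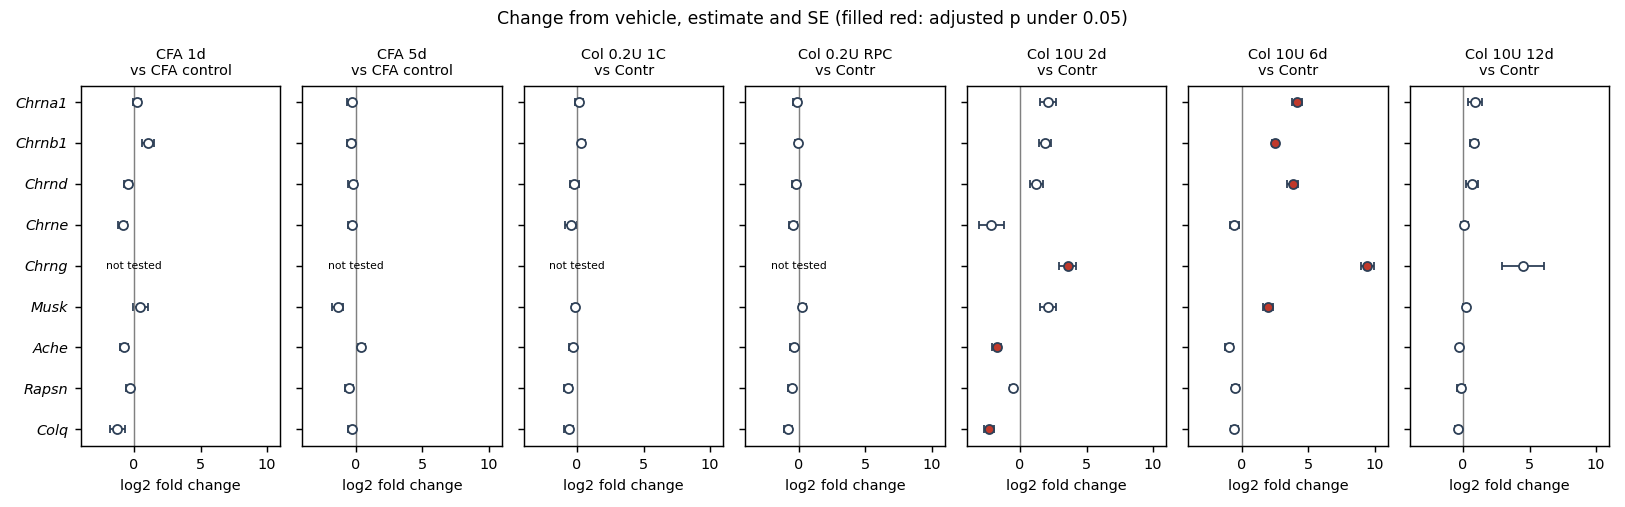
Log2 fold change of each member against its vehicle, with SE as bars, in the 7 comparisons, red where the adjusted p was under 0.05. Red points appear at 2d (Chrng, Ache, Colq) and 6d (Chrna1, Chrnb1, Chrnd, Chrng, Musk) post-Col (10U), and in no panel of CFA or 0.2U Col.

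After CFA no member passed the test. Of the 8 that could be tested, none was called at 1d by edgeR or DESeq2, where 0% of 13944 genes were called. Log2 fold changes ran from -1.25 (Colq) to 1.06 (Chrnb1), and 1 member, Chrne, had an unadjusted p under 0.05 (-0.86 ± 0.32), as 588 genes or 4.22% had. The values of all 8 overlapped those of CFA control, where 6.22% of genes did not. Mouse 1 carried most of the upper end, with Chrnb1 at 114 CPM against 33 and 53.6 CPM in the other mice and Musk at 47.0 CPM against 17.2 and 22.9 CPM. The same mouse had the lowest Colq value at 1d, 4.56 CPM against 22.5 and 10.6 CPM. Chrna1, which rose with Chrnb1 after 10U Col, was at 48.6, 29.9 and 39.5 CPM against 46.1, 37.0 and 20.0 CPM in CFA control. Chrng had 0.0913 to 0.363 CPM at 1d and too few counts to be tested.

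At 5d post-CFA again no member was called by edgeR, where 1.11% of 14026 genes were called, and 1 had an unadjusted p under 0.05 (14.0% of genes). That member was Musk, at 7.67, 7.60 and 7.89 CPM against 37.0, 11.4 and 14.2 CPM in CFA control (-1.36 ± 0.43, edgeR adjusted p = 0.205). All 3 mice were below every control mouse, and 19.9% of all genes did not overlap between these groups. DESeq2 called Musk, and so did edgeR without control mouse 3 (adjusted p = 0.0280 in both), where Rapsn was called as well (0.0255). Without control mouse 1, the mouse at 37.0 CPM, the change of Musk was -0.68 (edgeR adjusted p = 0.312). The salivary list summed to 129144 to 160951 CPM at 5d and to 105 to 13780 CPM in CFA control, and its part in the Musk values was not tested. Ache stood at 56.5, 80.0 and 67.8 CPM, with the highest group mean of the series, 68.1 ± 11.7 CPM (SD, n = 3), but overlapped its control (0.44 ± 0.27).

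Neither 0.2U group moved the members past the test. Of 8 tested members none was called in 1C or RPC by edgeR or DESeq2, where 0% of 14493 and of 14269 genes were called. At an unadjusted p under 0.05 there were 0 members in 1C (12.6% of genes) and 1 in RPC (13.5%), Colq. No member was free of overlap with Contr, where 9.76% of genes in 1C and 12.2% in RPC were. Log2 fold changes ran from -0.67 to 0.31 in 1C and from -0.79 to 0.29 in RPC. In RPC, mouse 1 had the highest Chrna1, Chrne and Ache of its group, 32.8, 18.0 and 60.6 CPM, against 15.1 to 17.5, 11.7 to 12.6 and 33.6 to 35.2 CPM in the other mice. Its salivary list summed to 25211 CPM, against 114566 to 276910 CPM in those mice. Chrng reached 1.04 CPM in mouse 2 of RPC and lay between 0.0551 and 0.477 CPM in the other 0.2U mice.

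Whether the members responded differently to 10U Col and to CFA was tested as the difference of both fold changes. Between 6d post-Col (10U) and 5d post-CFA 4 of the 8 members other than Chrng differed, all with the larger change after Col, where 11.3% of 14892 genes differed and 4.34% in that direction. An unadjusted p under 0.05 was found for 5 of the 8 and 28.9% of genes. The differences were 4.44 ± 0.52 for Chrna1, 4.04 ± 0.55 for Chrnd, 3.32 ± 0.63 for Musk and 2.89 ± 0.38 for Chrnb1 on the log2 scale, with edgeR adjusted p between 0.00204 and 0.0105. Chrng entered this test only through the 6d mice, with a fitted difference of 8.92 that had to be positive. Days, vehicles and read assignment differ along with the agent. Between 2d post-Col (10U) and 1d post-CFA no member passed (0.0946% of 14794 genes did), 2 of the 8 had an unadjusted p under 0.05 (6.83% of genes) and DESeq2 called 0. These were Chrna1 (1.88 ± 0.75) and Chrnd (1.66 ± 0.66), both at an edgeR adjusted p of 0.699.

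Signalling genes upstream of the receptor changed less evenly. Of 14 tested genes for agrin, neuregulin and their effectors, 1 was higher and 1 lower at 6d, with a median log2 fold change of -0.08 beside 0.01 over all genes. The share of all genes called at 6d, 27.3% with 14.0% higher, is the background for this and the following lists. For counts at 2d it is 2.22%, and at 5d post-CFA 1.11%. From 2d to 6d it is 8.73% with 4.68% higher, and from 6d to 12d 26.4% with 13.0% lower and 13.4% higher. Nrg1, the neuregulin of nerve and muscle, rose (4.33 ± 0.45, edgeR adjusted p = 0.00226) from 0.0910 to 0.181 CPM in Contr to 2.44 to 3.59 CPM, and Lrp4, the agrin receptor partner of Musk, fell (-1.25 ± 0.22, 0.0104). Both turned back between 6d and 12d, at -2.80 ± 0.31 for Nrg1 and 0.75 ± 0.19 for Lrp4 (edgeR adjusted p = 0.00668 and 0.0273), and the adaptor gene Crk rose as well (0.48 ± 0.11, 0.0221). Nrg1 had 2 to 4 counts in Contr, 57 to 106 at 6d and 5 to 11 at 12d. Against Contr it passed the low-count filter only through the 6d mice, so a call had to be higher. At 2d 1 of 14 was called, Pak1 (-1.11 ± 0.21, edgeR adjusted p = 0.0482). Agrn, which encodes agrin, was the only called gene of this list post-CFA, at 5d (0.98 ± 0.15, edgeR adjusted p = 0.0409). The salivary list was high in all mice at 5d post-CFA, and its part in the Agrn values was not tested.

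Of 26 genes of the junctional scaffold and basal lamina, 4 rose and 6 fell at 6d, with a median of -0.04 beside 0.01, a share of called genes near that of all genes. Nes, which encodes the filament nestin, rose by 2.03 ± 0.26 (edgeR adjusted p = 0.00404) and the laminin chain Lamb1 by 1.64 ± 0.23 (0.00498). The collagen IV chain genes Col4a3, Col4a4 and Col4a6 fell, Col4a6 by 1.95 ± 0.50 and Col4a4 by 1.82 ± 0.40 on the log2 scale (edgeR adjusted p = 0.0287 and 0.0178). From 6d to 12d Nes fell by 1.67 ± 0.33 (edgeR adjusted p = 0.0165) and 4 genes rose, among them Col4a3 and Col4a4.

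Of 16 genes that denervated muscle is known to raise, 8 were called at 6d, all higher like Chrng, with a median of 1.88 beside 0.01. Sln, which encodes the calcium pump inhibitor sarcolipin, rose by 6.76 ± 0.72 (edgeR adjusted p = 0.00246), Myog, the myogenic factor myogenin, by 5.14 ± 0.38 (8.99e-04) and Gadd45a by 3.80 ± 0.58 (0.00624). At 2d Myog alone was called (3.45 ± 0.67, edgeR adjusted p = 0.0482), at 15.1 to 103 CPM against 3.35 to 8.15 CPM in Contr. From 6d to 12d 7 fell and 1 rose. None of the 16 was called in any CFA or 0.2U comparison. Of all genes 1.11% were called at 5d post-CFA and 0% in the others of these comparisons. At 1d post-CFA the list median was 0.70 beside -0.01 over all genes. The list summed to 2198 to 8380 CPM at 1d post-CFA and to 755 to 3579 CPM in CFA control. It summed to 1597 to 3989 CPM at 6d post-Col (10U) and to 741 to 1096 CPM in Contr.

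Markers of regenerating fibres, which share Myog with the former list, were called higher in 8 of 12 tested genes at 6d, with a median of 2.64. Tmem8c, the fusion protein myomaker, rose by 8.48 ± 0.49, the embryonic troponin T gene Tnnt2 by 7.17 ± 0.56 and Myl4 by 6.72 ± 0.50 (edgeR adjusted p = 3.88e-04, 0.00106 and 8.99e-04). Tmem8c had too few counts to be tested in 1C or post-CFA against their vehicles. It thus entered the 6d test through the 6d mice, where a call had to be higher. At 2d the list was split, with Myog higher and Actc1 (-2.47 ± 0.41, edgeR adjusted p = 0.0408) and embryonic myosin Myh3 (-1.76 ± 0.33, 0.0482) lower. Between 2d and 6d 10 of 12 rose, led by Myh3 (6.90 ± 0.44, edgeR adjusted p = 0.00103), and by 12d 4 had fallen. The list summed to 3784 to 5882 CPM at 6d, 446 to 762 at 2d, 734 to 2608 at 12d and 499 to 1141 in Contr. Of the list, Myh3 was also called at 5d post-CFA (2.51 ± 0.24, edgeR adjusted p = 0.0186), the only 1 outside the 10U groups. Myh3 was at 16.1 to 24.3 CPM there, against 3.11 to 4.42 CPM in CFA control and 18 to 23.6 CPM in Contr. The other tested genes of the list all had negative changes at 5d post-CFA. The list median there was -0.53 beside -0.02 over all genes.

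Marker lists of other cells moved along with the members. At 6d 8 of 9 macrophage genes rose, led by Fcgr1 (3.9 ± 0.48, edgeR adjusted p = 0.00334), and the list summed to 1206 to 2391 CPM against 99.7 to 442 in Contr, while at 2d it summed to 496 to 1338 CPM. Of 20 myofibre genes 5 fell, with Myh4 at -2.23 ± 0.60 (edgeR adjusted p = 0.0318), and the list summed to 65489 to 110461 CPM at 6d against 173059 to 245936 in Contr. At 2d 1 myofibre gene was called, Actn3 (-1.91 ± 0.32, edgeR adjusted p = 0.0408), beside a list median of -1.57. Schwann cell genes, the glia of the nerve, were lower in 6 and higher in 1 of 10 at 6d, with Sox10 at -2.90 ± 0.70 and the myelin gene Prx at -2.71 ± 0.45 (edgeR adjusted p = 0.0235 and 0.00853). By 12d 5 of 10 were higher than at 6d. The Schwann list summed to 112 to 306 CPM at 6d, 327 to 570 CPM at 12d and 504 to 1528 CPM in Contr. At 5d post-CFA, where the salivary list was high in all mice, 1 of the 10 was higher, and the largest change was 2.55. The Contr mice differed in salivary RNA, and its part in the Schwann values was not tested. Of the motor terminal list, 6 genes could be tested at 6d and 1, Snap25, was lower (-2.47 ± 0.64, edgeR adjusted p = 0.0293), and 3 of its 10 genes had no count in any Contr mouse.

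Of the remaining cell lists at 6d, 4 of 7 neutrophil genes and 3 of 3 salivary genes were lower. So were 5 of 8 bone genes and 2 of 7 fat genes, and 2 of 8 fibroblast genes were higher. The neutrophil list summed to 24.1 to 33.4 CPM at 6d and to 12.9, 370 and 1428 CPM in Contr. The lowest vehicle mouse was thus below every 6d mouse. The study reports more neutrophils by flow cytometry at that stage, and the difference from these sums was not tested. Only 3 salivary genes had enough counts to be tested, and with little salivary RNA at 6d their direction was largely set. The salivary list summed to 11.1 to 33.7 CPM at 6d and to 89.6, 141896 and 39954 CPM in Contr. It summed to 36.5 to 345 CPM at 12d, so the change of the members from 6d to 12d was between libraries with little salivary RNA. The part of each of these lists in the values of the members was not tested.

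**Figure D4:**
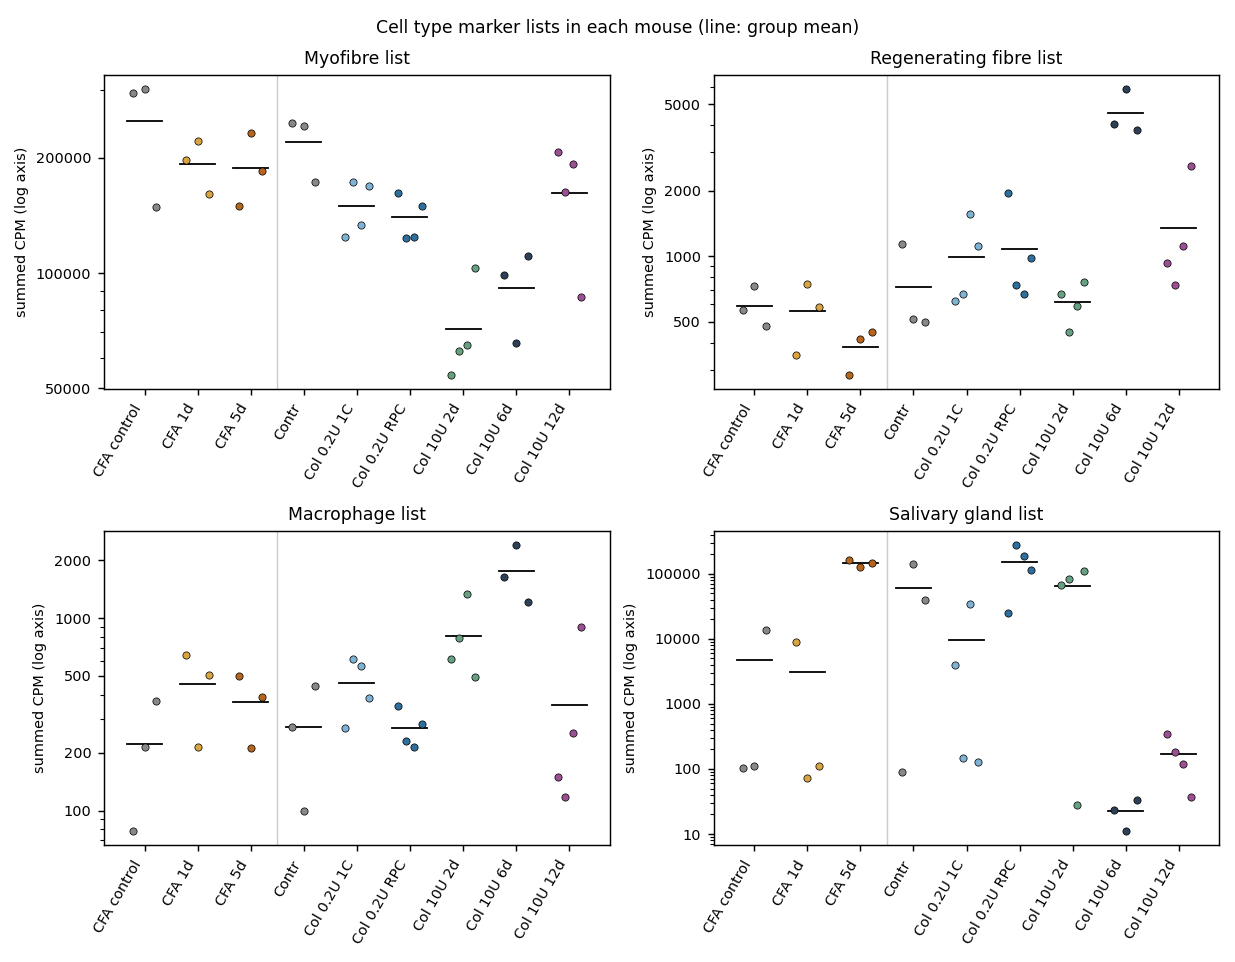
Summed CPM of 4 marker lists in each mouse (points, log axis) with the group mean as a line. The regenerating fibre list is highest at 6d post-Col (10U), between 3784 and 5882 CPM, the myofibre list is lowest at 2d, and the salivary list spans from 11.1 to 276910 CPM, with all mice high at 5d post-CFA and low at 6d and 12d.

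Other nicotinic subunits are genes of neurons and sensory cells. At 6d 1 of 5 that could be tested was higher and 2 were lower. Chrna10 was the higher one at all 3 days of 10U Col and had counts above 3 in the 10U libraries alone. Chrnb4 had 43 to 165 counts in Contr, 12 to 335 in the 0.2U mice, 0 to 2 in all 10U mice and 0 to 1 in the CFA experiment, and Chrna3 showed the same split at 1 to 53 and 0 to 2 counts. No direction is drawn from them. Reads of Chrna10 and of Art1, the muscle gene opposite to it, cannot be told apart in the 10U libraries. Among partners of the receptor and of cholinesterase, Prima1, the membrane anchor of Ache, was lower at 6d (-3.32 ± 0.43, edgeR adjusted p = 0.00427) and rose again by 12d (2.54 ± 0.52, 0.0177), and the chaperone Canx was higher at 6d (0.83 ± 0.18, 0.0177), 2 of 9 genes tested. Ufsp1, whose gene lies 203 bases from Ache on the same strand, was lower at 2d (-1.55 ± 0.30, edgeR adjusted p = 0.0482), as Ache was, and reads that run from 1 of these genes into the other cannot be told apart.

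The genes most like each member across the 31 libraries, by Pearson's r of log2 CPM over 15526 genes, give a last description. These libraries share their groups, so r includes the differences between groups, and no test was made. Chrna1 and Chrnd were closest to each other (r = 0.961), and next to Arhgef2 (0.943 for both). Chrnb1 was closest to Gadd45a (0.955). Chrng was closest to Tnnt2, R3hdml and H19 (0.95, 0.95 and 0.948), and Chrne to Apc2, Crym and Srl (0.919, 0.910 and 0.907). Musk had other neighbours, Gnl2, Dnttip2 and Gtpbp4 (0.926, 0.917 and 0.904). Ache was closest to Ufsp1 (0.957), Colq to Ttyh2 (0.928) and Rapsn to 2310022A10Rik (0.923). Chrne, Ache and Colq had no neighbour in common with the shared subunits among these first 3.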

How the data were processed

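The authors isolated MM from the left side, with tendons left out as far as possible, made stranded poly(A) libraries (TruSeq), sequenced single-end reads and aligned them with TopHat2 to mm9. They deposited raw counts per gene symbol, 1 table per mouse, in the form that HTSeq writes. The annotation and the strand setting used for counting are not given in the sources used here. The lines of unassigned reads that close each table were kept out of library sizes and tests, and the lines on reads without a gene held 6.69 to 22.5% of reads.

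The members and gene lists were chosen with earlier results of these data known. Groups follow the sample titles. Each comparison was fitted on its own libraries with edgeR 4.0.16 in R 4.3.3 (TMM, quasi-likelihood F test, group as only factor). A gene entered when 3 or more of these libraries held 10 or more counts, and Benjamini-Hochberg adjustment ran over every gene that entered. SE was obtained as the size of the log2 fold change over the root of F. Interactions were fitted on 4 groups. RPKM used merged exon lengths of GENCODE vM1, and log2 CPM for correlations had a prior count of 2. All 9 members were described, along with up to 4 called genes of each list per comparison with the largest change and the 3 genes most like each member. Of the list genes that this rule names, only some are described, chosen after their values were seen, and the others stand in the counts of their lists. One is not reported here. Python 3.11 served for exact permutation tests over mice, sequence searches and plots. The scripts were tested on simulated counts, where DESeq2 made more false calls than its threshold allows and edgeR came close to it.

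Alternatives were DESeq2 1.42.0, its size factors in edgeR, library size set by the myofibre list, no low-count filter, the call rule of the study (fold over 2, RPKM over 1), 1 fit of all 31 libraries, both vehicle groups pooled, a replicate block, and each library left out. The 12d libraries as reference were added after the data had been seen. No pair among 465 pairs of libraries was identical. Each library came from 1 mouse, so p-values measure the spread between mice of a group. Replicate numbers came from the titles. Only at 1d post-CFA did all same-numbered mice deviate together (r = 0.115, 0.249 and 0.447), and the block changed no member's call there.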

Additional observations from a re-analysis of the deposited data

Results flagged for a closer look

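In groups of 4 mice, a value was set aside when its gap to the nearest other mouse was large beside the range of the group (Dixon's test at its 95% limit). Of 36 groups of values 9 were. The genes were measured in the same mice and vary together, so this count cannot be set against the 1 in 20 of a single test. Mouse 4 of the 12d group gave 4 of them, always as the highest, with Chrna1 at 91.6, Chrnb1 at 64.1, Chrnd at 29.9 and Chrng at 14.4 CPM. Mouse 4 of the 2d group gave 2, with Chrne at 12.1 CPM, the highest, and Chrng at 0.788 CPM, the lowest. Mouse 1 of the RPC group gave 3, with Chrna1 at 32.8, Chrne at 18.0 and Ache at 60.6 CPM, each the highest. The cause was not tested.

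The change from vehicle differed between 6d post-Col (10U) and 5d post-CFA in the test of the difference by 4.44 for Chrna1, 4.04 for Chrnd, 3.32 for Musk and 2.89 for Chrnb1 on the log2 scale. For Chrng it was 8.92, in a test that it entered only through the 6d mice.

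Among lines that no comparison used, reads set aside as ambiguous made at least 0.559% in each of the 11 libraries of 10U Col, above the highest of the other 20 libraries, 0.259%.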

How the results depend on the processing

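Most values kept their direction and their side of the threshold: 1294 of 1472 member values did, 55 lost and 59 gained a call, and 64 turned sign. Counts of called members in this section are given without the share of all genes called under the same alternative. They are thus not read as a result about the members. With DESeq2 1 member was called at 5d post-CFA and 7 at 2d. One fit of all 31 libraries called 7 members at 2d and 1 at 12d, and both vehicle groups pooled called 9 and 1. With the replicate block 8 members were called at 2d, 5 from 2d to 6d and 3 in the difference between 2d post-Col and 1d post-CFA, and in the block no vehicle mouse pairs with mouse 4 at 2d. Apart from these, the block moved no member count by over 1.5 times. The numbers paired no mice beyond 1d post-CFA, with correlations of -0.353 to 0.528 elsewhere.

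Library size set by the myofibre list moved the median of all genes to 1.67 at 2d, 1.31 at 6d, 0.53 at 12d, -0.39 from 2d to 6d and -0.74 from 6d to 12d. From 6d to 12d it called 0, with Chrna1 at -3.80, Chrnb1 at -2.28, Chrnd at -3.76, Chrng at -5.24 and Musk at -2.59, each as large as before or larger (edgeR adjusted p = 0.0963). It called 7 members at 2d and 5 in the difference between 2d post-Col and 1d post-CFA. It turned the sign of Rapsn at 1d post-CFA (0.06), of Chrna1 (0.04), Chrnd (0.09), Chrne (0.06) and Colq (0.06) at 5d post-CFA, and of Chrnd (0.33), Chrne (0.11), Musk (0.32) and Ache (0.24) in 1C. In RPC it turned Chrna1 (0.47), Chrnb1 (0.52), Chrnd (0.38), Chrne (0.23), Ache (0.24) and Rapsn (0.10). After 10U Col it turned Rapsn at 2d (1.19), Chrne (0.76), Ache (0.31), Rapsn (0.87) and Colq (0.79) at 6d, and Ache (0.24), Rapsn (0.31) and Colq (0.22) at 12d. Between days it turned Rapsn from 2d to 6d (-0.32) and Chrne (-0.07), Ache (-0.08), Rapsn (-0.55) and Colq (-0.58) from 6d to 12d. In the differences from CFA it turned Ache (0.18), Rapsn (1.13) and Colq (0.14) early and Chrne (0.71) and Colq (0.74) late. Pooled vehicles turned Chrna1 in 1C (-0.14), Musk in RPC (-0.10) and Chrne (-0.19) and Musk (-0.16) at 12d, and the block turned Rapsn at 12d (0.05). With the 12d libraries as reference Chrng at 2d was at -0.89, since mouse 4 at 12d had 14.4 CPM.

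Leaving out 1 library gave 0 to 2 called members at 5d post-CFA, 0 to 8 at 2d, 3 to 8 at 6d, 1 to 6 from 2d to 6d and 0 to 7 from 6d to 12d. Without a mouse of the 6d group Chrng had too few libraries with 10 counts to be tested against Contr. Signs turned within these ranges for Musk (-0.05 to 1.17) and Chrna1 (-0.04 to 0.47) at 1d post-CFA, Chrnd (-0.37 to 0.03) and Chrna1 (-0.10 to 0.37) in 1C, and Chrnb1 (-0.29 to 0.03) and Chrna1 (-0.46 to 0.04) in RPC. The same held for Rapsn (-0.41 to 0.07) and Chrne (-0.16 to 0.49) at 12d, Musk (-0.45 to 0.28) and Rapsn (0.00 to 0.18) from 2d to 6d, and Colq (-0.03 to 0.34) from 6d to 12d. In the differences from CFA it held for Rapsn (-0.52 to 0.03) early and for Rapsn (-0.26 to 0.37), Chrne (-0.58 to 0.19) and Colq (-0.53 to 0.04) late. The cause was not tested. Counts of 2 to 6 limit Chrng in Contr.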
